A study of Mus musculus with 6 samples.

Results

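Fatty acid oxidation and fatty acid synthesis were followed through 37 genes in liver natural killer (NK) cells, lymphocytes of innate immunity with cytotoxic granules. The 37 were chosen by name, as enzymes that activate fatty acids with coenzyme A, carry them into mitochondria, oxidise them there or in peroxisomes, or build, elongate and desaturate them, and each of the 37 names matched 1 row of the deposited table of 55414 genes. Messenger RNA was sequenced in bulk in 6 libraries from wild-type mice, all labelled day 3. The control group was 3 libraries from mice given phosphate-buffered saline (PBS), and the treated group was 3 libraries after metformin, a diabetes drug that lowers blood glucose, at 200 mg per kg for 3 days. The age, strain and sex of the mice, the gate by which NK cells were isolated and whether each library came from a separate mouse are not given in the sources used here, so each p-value reflects the spread among 3 libraries a group, which may be technical.

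Oxidation begins when acyl-CoA synthetases join a fatty acid to coenzyme A. The carnitine shuttle then moves the acyl group across the inner mitochondrial membrane, and a repeated cycle of dehydrogenation, hydration, a further dehydrogenation and thiolysis shortens it and hands electrons to the respiratory chain. Synthesis runs in the cytosol: acetyl-CoA carboxylase makes malonyl-CoA, fatty acid synthase builds palmitate from it, and elongases and desaturases on the endoplasmic reticulum lengthen the chain and add double bonds. The pathways meet at malonyl-CoA, which blocks carnitine palmitoyltransferase 1, and AMP-activated protein kinase (AMPK), which metformin is known to activate in many cells, phosphorylates and inhibits acetyl-CoA carboxylase. That step acts on the protein and is not seen in an RNA measurement.

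With metformin the largest differences towards lower levels lay in the stearoyl-CoA desaturases, 2 acyl-CoA synthetases and fatty acid synthase, while differences in the core of mitochondrial beta-oxidation were small. Scd2 and Scd1, the desaturases that make monounsaturated fatty acids, had the largest differences among members with more than a few reads: log2 fold changes (metformin against PBS) of -1.07 (standard error, SE, 0.20) and -0.85 (SE 0.18). Fasn, fatty acid synthase, was at -0.60 (SE 0.30), and at -0.29 without metformin library 3. Slc25a20, the carrier that takes acylcarnitines into the mitochondrial matrix, was the member highest in relation to its error, at 0.40 (SE 0.10). The 16 enzymes of mitochondrial beta-oxidation and electron transfer had log2 fold changes from -0.19 to 0.25, with a median of 0.02. In edgeR's quasi-likelihood test no member passed an adjusted p of 0.05 over all 15527 genes tested (smallest adjusted p = 0.207, Scd2), and no gene of the whole table did (0%).

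The libraries held 22152167 to 30161214 estimated reads, and all 37 members passed the filter on low counts. Levels are CPM, a gene's reads scaled to a common library size, with library sizes set by the trimmed mean of M values (TMM). Across all genes 10.4% had an unadjusted p under 0.05, 5.29% higher and 5.08% lower with metformin, and in 19.1% the groups did not overlap (9.49% higher, 9.63% lower). Among the members 6 of 37 (16.2%) had an unadjusted p under 0.05, 1 higher (Slc25a20) and 5 lower (Scd1, Scd2, Elovl6, Acsl3 and Acsl4). The groups did not overlap in 14 members (37.8%), 5 higher and 9 lower; on the deposited TPM, where the median of all genes moved by -0.106 in log2, it was 1 higher and 13 lower, and with the trend of level on gene length removed 3 higher and 9 lower. The median log2 fold change of the members was -0.02, and that of all genes tested 0.0053. DESeq2, which called 2.51% of the genes to which it gave an adjusted p, called 2 members, Scd1 and Scd2, both lower.

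**Figure D1:**
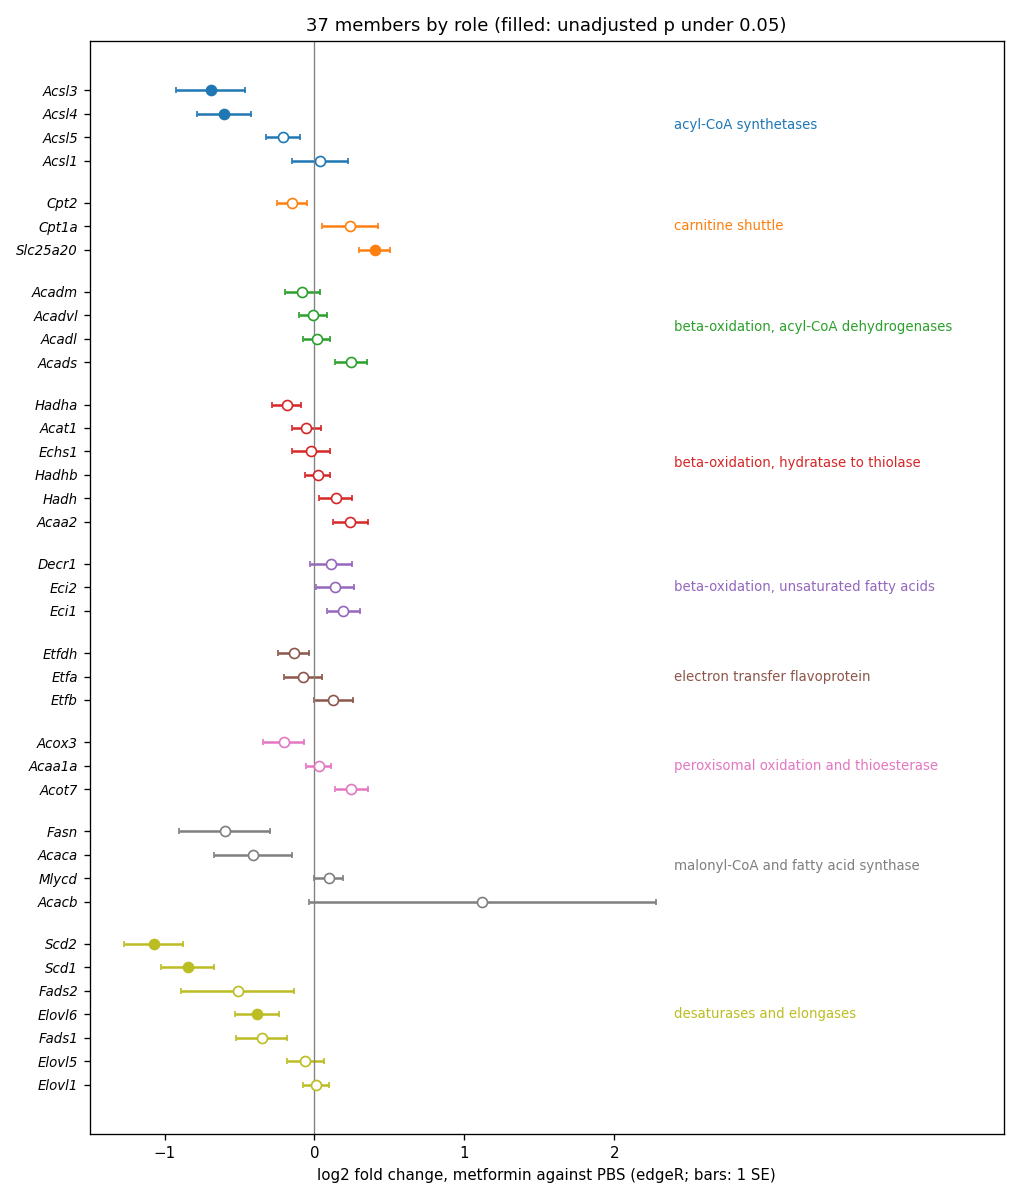
Log2 fold change (metformin against PBS, edgeR) of each of the 37 members, grouped by role, with bars of 1 SE; filled points have an unadjusted p under 0.05. Scd2 (-1.07), Scd1 (-0.85), Acsl3 (-0.69) and Acsl4 (-0.60) lie farthest to the left, the beta-oxidation enzymes lie close to 0, and Acacb, with few reads, has the widest bar.

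Markers of other cells were measured beside the members. For the labelled cell type, 10 NK cell genes summed to 19680 to 21260 CPM with PBS and 20350 to 22800 CPM with metformin. Gzma, Il2rb and Nkg7 were the most abundant of them, at means of 4495, 4430 and 2870 CPM with PBS. Ncr1, the NK receptor NKp46, was at 1314 to 1591 CPM in every library. Within the list Eomes, Prf1 and Tbx21 were lower with metformin without overlap, and Klrb1c and Nkg7 higher. Eomes had a log2 fold change of -0.63 (SE 0.09). Hepatocytes are rich in transcripts of fatty acid metabolism. Their 26 markers, none at 0, summed to 530.3, 348 and 382 CPM in PBS 1, 2 and 3 and to 383, 349 and 911 CPM in metformin 1, 2 and 3 (exact permutation test, two-sided, p = 0.6), so metformin 3 stood apart. Trf supplied 164 CPM of the PBS mean of 420 CPM and 220 CPM of the metformin mean of 547 CPM. It was at 158 to 173 CPM with PBS and 184 to 291 CPM with metformin. Metformin 3 also leaned towards short genes, with a Spearman correlation between gene length and level relative to the 6-library mean of -0.444, against -0.098 to 0.356 in the other libraries. Type 1 innate lymphoid cells (ILC1) are the liver-resident relatives of NK cells. Their genes summed to 1235 to 1384 CPM with PBS and 1854 to 1978 CPM with metformin. Those of conventional NK cells summed to 3415 to 3545 and 2283 to 2658 CPM, and T cell markers to 490.5 to 622 and 932 to 1108 CPM. Each list had 10 genes, and each exact permutation p was 0.1, the smallest that 3 against 3 libraries can give. The lists were chosen with earlier results of these data known. Every gene of the ILC1 list was higher without overlap, against 9.49% of all genes. Every gene of the conventional NK cell list was lower without overlap, against 9.63% of all genes. The p-values of these sums are therefore no independent evidence of a difference. Most of the T cell sum came from Cd3g and Trbc2. They averaged 303 and 180 CPM of the PBS mean of 572 CPM, and 553 and 279 CPM of the metformin mean of 1037 CPM. Cd3e, Cd3d and Cd8a were also higher without overlap, while Cd4, Cd8b1, Trac, Cd5 and Cd6 overlapped. In such bulk samples fewer cells of a type and less RNA per cell cannot be told apart, and the part of these markers in the differences below was not tested. Dendritic cell markers (7 genes) summed to 562 to 585 CPM with PBS and 406 to 528 CPM with metformin. Itgax alone supplied 507 CPM of their PBS mean of 575 CPM and 424 CPM of their metformin mean of 484 CPM. Each of the other dendritic cell genes overlapped between groups. Those of adipocytes, which are rich in Scd1, summed to 3.78 to 5.31 and 1.38 to 3.29 CPM (6 genes, of which 5 averaged under 1 CPM, Lep was at 0 in every library, and Cfd supplied 3.42 CPM of the PBS mean of 4.56 CPM).

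Promoter windows are shown for the members that had an unadjusted p under 0.05 and a window at hand. Fasn (unadjusted p = 0.082 in edgeR) was added for the synthase, and Scd1 and Scd2 could not be shown. RefSeq windows (build GRCm38.p6) were at hand for 31 of the 37 members; Acaa2, Acat1, Decr1, Fads1, Scd1 and Scd2 have no entry. Each line runs 5′ to 3′ on the gene's strand and holds only bases before the start site that lie in no annotated exon. Capitals mark CCAAT, the box bound by NF-Y, on either strand. The windows are Acsl3 chr1:78657575-78657824 (+), Acsl4 chrX:142390536-142390785 (-), Elovl6 chr3:129532136-129532256 (+), Fasn chr11:120824548-120824797 (-) and Slc25a20 chr9:108661886-108662087 (+).
Acsl3: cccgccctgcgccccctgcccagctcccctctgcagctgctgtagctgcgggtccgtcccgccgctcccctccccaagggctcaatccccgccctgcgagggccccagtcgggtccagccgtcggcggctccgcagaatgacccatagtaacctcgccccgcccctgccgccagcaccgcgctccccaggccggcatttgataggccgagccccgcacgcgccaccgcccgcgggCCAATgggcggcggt
Acsl4: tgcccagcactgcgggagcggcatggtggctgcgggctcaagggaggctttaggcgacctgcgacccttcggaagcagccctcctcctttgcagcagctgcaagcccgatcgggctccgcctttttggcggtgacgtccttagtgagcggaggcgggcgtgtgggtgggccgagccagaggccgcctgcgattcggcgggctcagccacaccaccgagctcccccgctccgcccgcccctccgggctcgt
Elovl6: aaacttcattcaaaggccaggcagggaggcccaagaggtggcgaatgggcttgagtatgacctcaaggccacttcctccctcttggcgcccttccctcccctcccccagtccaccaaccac
Fasn: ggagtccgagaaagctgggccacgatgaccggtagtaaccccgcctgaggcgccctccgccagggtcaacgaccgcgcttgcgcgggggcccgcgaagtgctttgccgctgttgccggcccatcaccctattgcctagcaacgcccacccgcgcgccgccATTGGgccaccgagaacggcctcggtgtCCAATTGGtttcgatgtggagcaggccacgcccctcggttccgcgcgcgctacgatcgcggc
Slc25a20: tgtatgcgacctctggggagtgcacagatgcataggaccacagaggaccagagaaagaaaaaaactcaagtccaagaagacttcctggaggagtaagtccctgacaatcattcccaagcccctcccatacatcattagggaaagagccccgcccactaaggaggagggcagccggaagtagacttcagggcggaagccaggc

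A total of 3 motifs were searched on both strands in the 250 bases before each start: the sterol regulatory element TCACNCCAC, read by the lipogenic SREBP factors, the direct repeat of 2 AGGTCA copies with 1 base of any kind between them, read by PPAR receptors that drive oxidation genes, and CCAAT. The sterol element was in 1 of the 31 members, Acsl1, in the window of its downstream start, and in 1.05% of all 32851 windows. The PPAR repeat was in 0 of 31 members and in 0.0335% of all windows. Members were counted by gene, with a match in any of a gene's windows (33 windows for the 31 members), while the percentages are by window. CCAAT was in 15 of 31 members and in 33.8% of all windows. Fasn held it in 3 places, starting 90, 62 and 59 bases before the start, the last 2 overlapping on opposite strands. Of the other promoters shown, Acsl3 held 1 copy, 15 bases before the start, and Acsl4, Elovl6 and Slc25a20 held none of the 3 motifs. These are matches of letters only, and no binding was measured.

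Desaturases and elongases include Scd2 and Scd1. Of the 7 members 3 had an unadjusted p under 0.05, all lower (5.08% of all genes were lower at that p), and the median log2 fold change was -0.38. Summed per length, the group reached 336, 361 and 333 TPM, the authors' unit of level per transcript length, in PBS 1, 2 and 3, and 282, 294 and 279 TPM in metformin 1, 2 and 3. On TPM the median of all genes moved by -0.106 in log2. Elovl1 supplied 183 TPM of the PBS mean of 343 TPM and 167 TPM of the metformin mean of 285 TPM. In CPM, Elovl1 averaged 133 with PBS and 134 with metformin. Every metformin library also had the higher ILC1 and T cell sums and the lower conventional NK cell sum given above, whose part in these genes was not tested.

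Scd2 (ENSMUSG00000025203.7, chromosome 19, 44282113 to 44295303 as the table gives it), a stearoyl-CoA desaturase prominent in brain, was at 109.9, 169 and 121 CPM in PBS 1, 2 and 3 and at 72.8, 67.8 and 49.4 CPM in metformin 1, 2 and 3. All 3 metformin libraries lay below all 3 PBS libraries, and PBS 2 was the highest. The means were 133 ± 31.2 and 63.3 ± 12.3 CPM (SD, n = 3 each), a fold of 0.475 (edgeR adjusted p = 0.207, unadjusted p = 0.000626). It ranked 47 by p among the 15527 genes. The log2 fold change was -0.87 without PBS 2 and -0.93 without metformin 3, and DESeq2 called it (log2 fold change -1.08, adjusted p = 7.7e-05).

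Scd1 (ENSMUSG00000037071.4, chromosome 19, 44382894 to 44396318), the stearoyl-CoA desaturase of liver and fat, lies on the same chromosome, with Scd4 between them. It was at 37.9, 39.0 and 32.3 CPM in PBS 1, 2 and 3 and at 25.7, 16.7 and 18.3 CPM in metformin 1, 2 and 3, again with no overlap. The means were 36.4 ± 3.58 and 20.2 ± 4.80 CPM (SD, n = 3 each; log2 fold change -0.85, SE 0.18; edgeR adjusted p = 0.246, unadjusted p = 0.00146), and DESeq2 called it (adjusted p = 0.0038). Over the 15 other settings tried, the log2 fold changes ran from -1.21 (without PBS 1) to -0.87 for Scd2 and from -1.06 (without metformin 1) to -0.73 (without metformin 2) for Scd1. Per length, Scd2 was 2.48, 3.68 and 3.18 times as abundant as Scd1 in PBS 1, 2 and 3 and 2.39, 3.45 and 2.30 times in metformin 1, 2 and 3, so both were lower with no separation of their ratio. The paralogs Scd3 and Scd4 were at 0.0384 and 0.769 CPM with PBS.

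Elovl6, the elongase that makes stearate, the substrate of these desaturases, was at 31.6, 31.3 and 36.4 CPM in the PBS libraries and at 21.4, 25.4 and 29.4 CPM in the metformin libraries. The groups were apart by a small gap. Its log2 fold change was -0.38 (SE 0.15; edgeR adjusted p = 0.455, unadjusted p = 0.030). With the trend of level on gene length removed from each library it was -0.21 (unadjusted p = 0.295 in edgeR), while without metformin 3 it was -0.51. Its unadjusted p was under 0.05 in 10 of the 15 other settings.

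Fads1, the delta-5 desaturase of polyunsaturated fatty acids, was at 16.1, 13.3 and 15.2 CPM in the PBS libraries and at 11.6, 13.0 and 10.3 CPM in the metformin libraries, without overlap (log2 fold change -0.35, SE 0.17; edgeR adjusted p = 0.508). Fads2, the delta-6 desaturase, overlapped: PBS 1 alone was high, at 9.87 CPM, and the other 5 libraries lay between 3.76 and 5.22 CPM. Its log2 fold change of -0.51 (SE 0.38) was -0.02 without PBS 1. The elongases Elovl1, of saturated very long chains, and Elovl5, of polyunsaturated chains, were close to equal between groups (log2 fold changes 0.0080, SE 0.09, and -0.06, SE 0.12). Elovl1 was the most abundant of these 7 genes, at 183 ± 3.13 TPM with PBS and 167 ± 1.51 TPM with metformin.

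**Figure D2:**
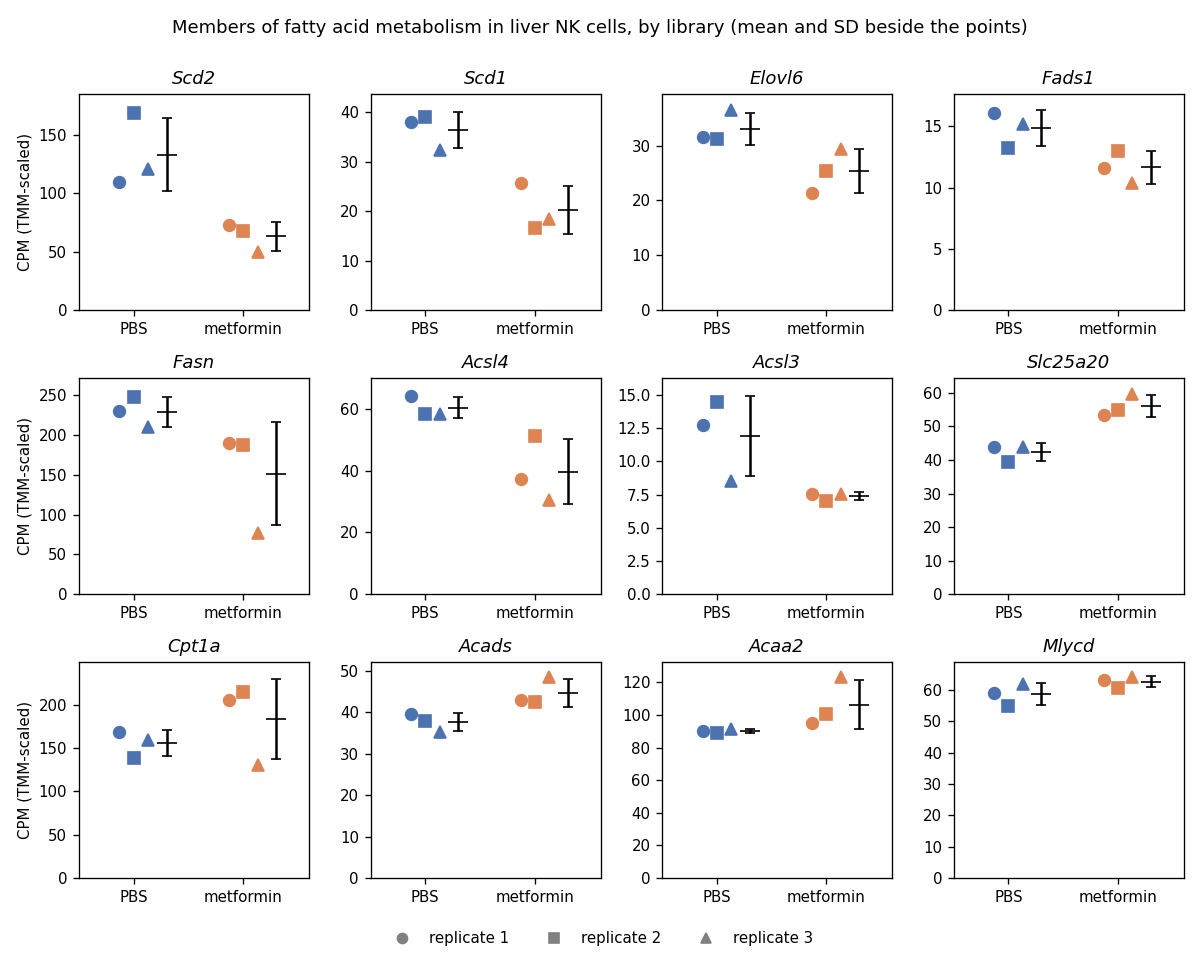
CPM (TMM-scaled) of 12 members in each of the 6 libraries, PBS in blue and metformin in orange, with marker shapes for the replicate number and the mean and SD beside the points. In the panels of Scd2, Scd1, Elovl6, Fads1, Fasn, Acsl4 and Acsl3 every metformin library lies below every PBS library, in those of Slc25a20, Acads and Acaa2 every one lies above, and Cpt1a and Mlycd overlap.

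Of the 4 enzymes around malonyl-CoA, 0 had an unadjusted p under 0.05 (10.4% of all genes did). Fasn, fatty acid synthase, was at 230.2, 248 and 210.3 CPM in the PBS libraries and at 190.2, 187 and 76.4 CPM in the metformin libraries. All metformin libraries were lower, but metformin 3 far more than the other two. The difference of -0.60 in log2 (SE 0.30, edgeR adjusted p = 0.526) was -0.29 without metformin 3 (unadjusted p = 0.0067 in edgeR) and -0.81 without metformin 1.

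Acaca, acetyl-CoA carboxylase 1, which supplies malonyl-CoA for synthesis, was at 18.7, 24.3 and 21.9 CPM in the PBS libraries and at 15.6, 22.5 and 10.7 CPM in the metformin libraries. The groups overlapped through metformin 2, and the difference of -0.41 in log2 (SE 0.26, edgeR adjusted p = 0.602) was -0.19 without metformin 3 and -0.72 without metformin 2. Acaca and Fasn are among the longest members, with gene lengths of 9513 and 10050 bases in the table, and with the length trend removed their log2 fold changes were -0.30 and -0.50. Acacb, the mitochondrial carboxylase whose malonyl-CoA restrains carnitine palmitoyltransferase, had 15, 28 and 0 estimated reads with PBS and 54, 24 and 7 with metformin, so its log2 fold change of 1.12 (SE 1.16) could not be told from no difference at this depth. Mlycd, malonyl-CoA decarboxylase, which removes the inhibitor, was at 59.0, 54.9 and 62.0 CPM in the PBS libraries and at 63.0, 60.6 and 64.2 CPM in the metformin libraries. These values overlapped (log2 fold change 0.09, SE 0.09; -0.04 on the deposited TPM).

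Among the 4 long-chain acyl-CoA synthetases, which activate fatty acids for either fate, 2 had an unadjusted p under 0.05, both lower (5.08% of all genes were). Acsl4, which prefers arachidonate, was at 64.4, 58.6 and 58.4 CPM in the PBS libraries and at 37.4, 51.3 and 30.5 CPM in the metformin libraries. The groups did not overlap, and metformin 2 was nearest to PBS (log2 fold change -0.60, SE 0.18; edgeR adjusted p = 0.359, unadjusted p = 0.0098). Its unadjusted p was under 0.05 in all 15 other settings, with log2 fold changes from -0.83 (without metformin 2) to -0.45 (without metformin 3). Acsl3, a synthetase of lipid droplets, was at 12.7, 14.5 and 8.54 CPM in the PBS libraries and at 7.53, 7.01 and 7.54 CPM in the metformin libraries. PBS 3 lay only just above the metformin libraries (log2 fold change -0.69, SE 0.23; edgeR adjusted p = 0.405, unadjusted p = 0.017), and the log2 fold change was -0.53 without PBS 2 (unadjusted p = 0.074 in edgeR). Acsl5, a synthetase of mitochondria and endoplasmic reticulum, was the most abundant of the 4 per length, at 99.4 ± 4.45 TPM with PBS and 84.5 ± 13.4 TPM with metformin, and overlapped (log2 fold change -0.21, SE 0.11). Acsl1, which prevails in liver, heart and fat, was at 10.1 to 14.1 CPM in all 6 libraries (log2 fold change 0.035, SE 0.19).

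Of the 3 genes of the carnitine shuttle, 1 had an unadjusted p under 0.05 (10.4% of all genes did). Differences between the genes were not tested. Slc25a20 (ENSMUSG00000032602.7, chromosome 9, 108539287 to 108561840), the carnitine-acylcarnitine translocase, was at 44.0, 39.3 and 44.0 CPM in PBS 1, 2 and 3 and at 53.5, 55.0 and 59.8 CPM in metformin 1, 2 and 3. Every metformin library was higher, and the gap between groups was larger than the range within either. The means were 42.4 ± 2.69 and 56.1 ± 3.29 CPM (SD, n = 3 each), a fold of 1.32 (edgeR adjusted p = 0.304, unadjusted p = 0.0042; DESeq2 adjusted p = 0.053). Its unadjusted p stayed under 0.05 in all 15 other settings, with log2 fold changes from 0.28 (deposited TPM) to 0.45 (upper quartile scaling).

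Cpt1a, the form of carnitine palmitoyltransferase 1 that sets the pace of entry in liver and lymphocytes, was at 169, 139 and 159 CPM in the PBS libraries and at 205, 215 and 130.2 CPM in the metformin libraries. Metformin 1 and 2 lay above every PBS library and metformin 3 below all of them. The difference of 0.24 in log2 (SE 0.19, edgeR adjusted p = 0.665) was 0.43 without metformin 3 (edgeR adjusted p = 0.129, unadjusted p = 0.0013) and 0.06 on the deposited TPM. The muscle form, Cpt1b, was at 0.0808 CPM (PBS) and 0.362 CPM (metformin) and did not pass the filter. Cpt2, which releases the acyl group inside the mitochondrion, was at 34.6, 34.3 and 34.5 CPM in the PBS libraries and at 32.1, 30.1 and 30.9 CPM in the metformin libraries. The groups did not overlap, but the log2 fold change was only -0.15 (SE 0.10; edgeR adjusted p = 0.621).

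The beta-oxidation spiral and its electron acceptors differed by little between groups in most members. Of the 16 genes 0 had an unadjusted p under 0.05, 9 had positive and 7 negative log2 fold changes, and the groups did not overlap in 4, of which 3 were higher (all genes: 10.4% under 0.05 and 19.1% without overlap). Among the 4 acyl-CoA dehydrogenases, which take the first step for chains of decreasing length, Acadvl (very long), Acadl (long) and Acadm (medium) had log2 fold changes of -0.0087, 0.02 and -0.08, with SE of 0.09, 0.09 and 0.12. Acads, for short chains, was at 39.5, 38.0 and 35.2 CPM in the PBS libraries and at 42.9, 42.4 and 48.5 CPM in the metformin libraries. Its groups did not overlap (log2 fold change 0.25, SE 0.11; edgeR adjusted p = 0.478), and the fold change was 0.18 with the length trend removed, 0.17 without metformin 3 and 0.09 on TPM.

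Hadha and Hadhb encode the subunits of the mitochondrial trifunctional protein, which carries out the last 3 steps for long chains, and lie head to head on chromosome 5, where Hadha begins at 30360160 on the minus strand and Hadhb begins at 30360246 on the plus strand in the table. Hadha was at 100.5, 107 and 102 CPM in the PBS libraries and at 98.9, 88.8 and 85.0 CPM in the metformin libraries, without overlap. Its log2 fold change was -0.19 (SE 0.10; edgeR adjusted p = 0.534). Hadhb was at 145 to 157 CPM (PBS) and 150.5 to 157 CPM (metformin) (log2 fold change 0.02, SE 0.09). The difference between the pair was not tested. For shorter chains, the hydratase Echs1 and the dehydrogenase Hadh had log2 fold changes of -0.02 (SE 0.13) and 0.14 (SE 0.11). Acaa2, the thiolase of the last step, was at 90.1, 88.8 and 91.2 CPM in the PBS libraries and at 94.8, 100.5 and 123 CPM in the metformin libraries. All metformin libraries were above, and metformin 3 was the highest (log2 fold change 0.24, SE 0.12; edgeR adjusted p = 0.515; 0.11 without metformin 3). Acat1, the acetoacetyl-CoA thiolase of mitochondria, had a log2 fold change of -0.05 (SE 0.10).

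Unsaturated chains need auxiliary enzymes, and all 3 had small positive log2 fold changes, from 0.11 to 0.19. Eci1, an enoyl-CoA isomerase, was at 47.1, 49.1 and 48.3 CPM in the PBS libraries and at 51.4, 51.7 and 62.1 CPM in the metformin libraries. These groups did not overlap (log2 fold change 0.19, SE 0.11; edgeR adjusted p = 0.560), and the difference was 0.012 with the length trend removed and 0.09 without metformin 3. Eci2, a further isomerase, and Decr1, the dienoyl-CoA reductase, overlapped (0.14, SE 0.13, and 0.11, SE 0.14). Etfa and Etfb, the subunits of the flavoprotein that collects electrons from the dehydrogenases, and Etfdh, which passes them to ubiquinone, overlapped too, with log2 fold changes of -0.08 (SE 0.13), 0.13 (SE 0.13) and -0.14 (SE 0.10). Etfb, with the shortest gene length of these 3 (893 bases), was at 63.5 to 68.8 CPM in 5 libraries and at 87.1 CPM in metformin 3, and its sign turned without metformin 3 (-0.03) and with the length trend removed (-0.12).

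Metformin 3 held the highest value of the 6 libraries in 11 of the 22 members of the shuttle, oxidation, electron transfer and thioesterase groups, and the lowest in 5. In the other 15 members, the synthetases and the synthesis side, it held the highest value in 2 and the lowest in 6. The same library had the highest hepatocyte marker sum (911 CPM) and the strongest lean towards short genes, whose part in these members was not tested. Over all genes, metformin 3 was 59.7 and 63.9 chi-square units per degree of freedom from the other metformin libraries, which were 14.8 apart. Highest and lowest values were not counted over all genes, so whether these counts are particular to the members was not tested.

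In peroxisomes, Acox3, an oxidase of branched chains, and Acaa1a, a thiolase, overlapped between groups, with log2 fold changes of -0.21 (SE 0.14) and 0.03 (SE 0.09). Acaa1a has a near-identical neighbour, Acaa1b, at 9.31 CPM (PBS) and 11.0 CPM (metformin), and the sources used here do not give how shared reads were split, so its value is uncertain. Acot7, an acyl-CoA thioesterase that frees fatty acids from coenzyme A, was at 247, 275 and 239 CPM in the PBS libraries and at 281, 284 and 337 CPM in the metformin libraries. The groups did not overlap, by a margin of a few CPM (log2 fold change 0.25, SE 0.11; edgeR adjusted p = 0.485), and the difference was 0.12 with the length trend removed and 0.10 on TPM.

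Per length, Acot7 was the most abundant member, at 346 ± 25.1 TPM with PBS and 371 ± 29.5 TPM with metformin. Elovl1, Etfb, Acaa1a, Hadhb, Etfa, Acadvl, Acadl and Eci1 followed, at 105 to 183 TPM with PBS. From Hadhb (119 ± 4.74 TPM) down to Eci1 (105 ± 0.629 TPM), neighbours in this order differed by less than the larger of their SDs, while the steps above Hadhb were larger than either SD. Fatty acid synthase stood at 40.3 ± 2.73 TPM and Cpt1a at 54.9 ± 6.30 TPM with PBS. At the low end were Acsl3 (8.62 ± 2.23 TPM), Fads1 (6.65 ± 0.740 TPM), Acsl1 (5.14 ± 0.577 TPM), Acaca (4.46 ± 1.36 TPM), Fads2 (3.44 ± 1.44 TPM) and Acacb (0.102 ± 0.0957 TPM).

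**Figure D3:**
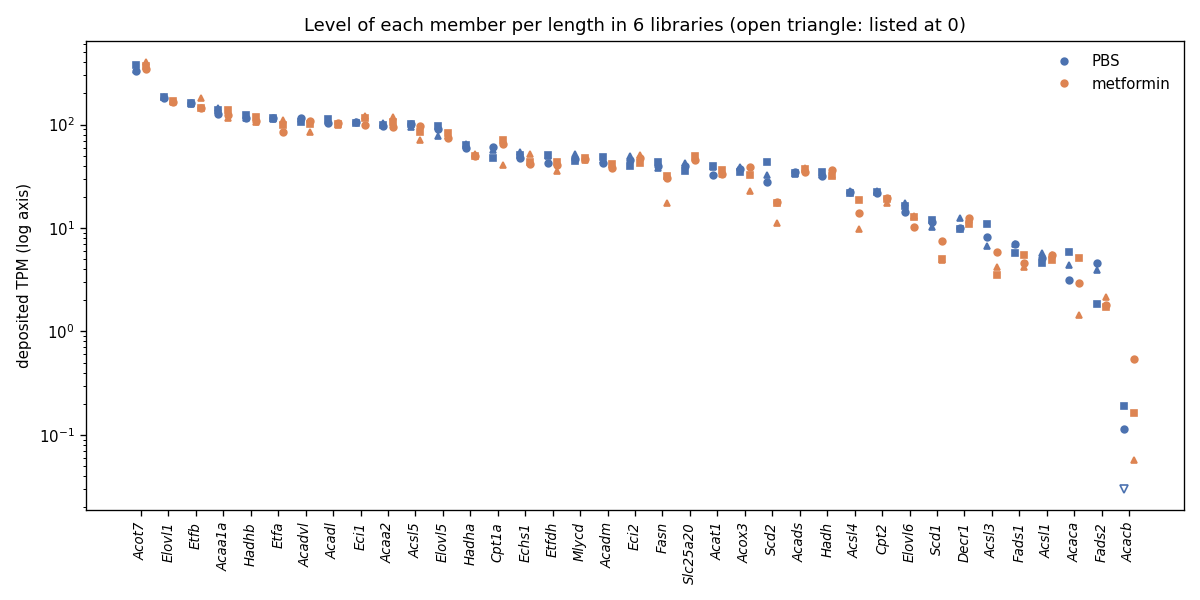
Deposited TPM (log axis) of each member in the 3 PBS (blue) and 3 metformin (orange) libraries, ordered by the PBS mean; marker shapes give the replicate number as in the plot of CPM by library, and the open triangle marks a library listed at 0, drawn at the foot of the axis. Levels run from 346 TPM for Acot7 to 0.102 TPM for Acacb with PBS, with the oxidation enzymes towards the upper end and most desaturases towards the lower.

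Other genes of lipid metabolism were taken from lists that hold none of the members. Of 135 such genes 124 were tested, 8 were higher and 9 lower at an unadjusted p under 0.05 (13.7%, against 10.4% of all genes), and their median log2 fold change was -0.0035. None passed in edgeR over all genes. DESeq2 called 3 of them, among them Acss2, lower, and Mlxip, higher. Of all genes to which it gave an adjusted p, DESeq2 called 2.51%.

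Among 22 further synthesis genes tested, 1 was higher and 1 lower at an unadjusted p under 0.05 (median -0.16). That was 9.09%, against 10.4% of all genes. Acss2, which makes cytosolic acetyl-CoA from acetate, averaged 158 ± 5.49 CPM in PBS and 119.9 ± 13.0 CPM in metformin libraries, without overlap (log2 fold change -0.39, SE 0.11; edgeR adjusted p = 0.312). Mcat, the malonyl transferase of mitochondrial fatty acid synthesis, averaged 29.4 ± 1.81 and 36.2 ± 2.58 CPM, and Oxsm, the ketoacyl synthase of that same pathway, 12.1 ± 1.85 and 8.95 ± 1.90 CPM (log2 fold changes 0.30 and -0.43). Acly, the citrate lyase that feeds Acaca, was named after its values were seen: it averaged 495 ± 15.2 CPM in PBS and 402 ± 119.8 CPM in metformin libraries (log2 fold change -0.30, SE 0.21). Metformin 1, 2 and 3 were at 474, 469 and 264 CPM, against 480.4 to 511 CPM with PBS, so the lower mean lay mainly in metformin 3.

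Of 36 genes of uptake, storage and lipolysis tested, 4 were higher and 3 lower at an unadjusted p under 0.05 (median 0.08). That was 19.4%, against 10.4% of all genes. Vldlr, a receptor for triglyceride-rich lipoproteins, was barely present, at 1.92 ± 1.93 and 0.316 ± 0.0467 CPM. Hilpda, a lipid droplet protein that inhibits lipolysis, averaged 9.63 ± 1.23 and 14.9 ± 2.65 CPM (log2 fold change 0.63, SE 0.20; edgeR adjusted p = 0.382).

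Of 27 transcription factors, their partners and AMPK components tested, 2 were higher and 2 lower at an unadjusted p under 0.05 (median -0.00091). That was 14.8%, against 10.4% of all genes. Insig1, which holds SREBP precursors in the endoplasmic reticulum and is itself an SREBP target, was at 23.6, 26.4 and 21.2 CPM in the PBS libraries and at 16.1, 15.4 and 17.8 CPM in the metformin libraries, without overlap (log2 fold change -0.53, SE 0.14; edgeR adjusted p = 0.308). Mlxip, a glucose-sensing factor related to ChREBP, averaged 135 ± 6.69 and 180.4 ± 20.7 CPM (log2 fold change 0.41, SE 0.11; edgeR adjusted p = 0.311; DESeq2 adjusted p = 0.045). Prkab2, a regulatory subunit of AMPK, averaged 13.6 ± 0.506 and 8.49 ± 2.52 CPM (log2 fold change -0.68, SE 0.23; edgeR adjusted p = 0.420). Srebf1, the gene of the lipogenic SREBP factor, was named after its values were seen and averaged 111 ± 9.89 and 107 ± 23.8 CPM (log2 fold change -0.05, SE 0.17). It was at 100 to 119 CPM with PBS and at 123, 118 and 79.8 CPM in metformin 1, 2 and 3.

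Further oxidation enzymes had 0 higher and 3 lower of 31 tested at an unadjusted p under 0.05 (median -0.05). That was 9.68%, against 10.4% of all genes. Acat2 averaged 42.9 ± 4.81 and 32.3 ± 2.75 CPM (log2 fold change -0.41, SE 0.12). It is in the list, but as the cytosolic acetoacetyl-CoA thiolase it lies outside the mitochondria and peroxisomes where fatty acids are oxidised. Ech1, a dienoyl-CoA isomerase, averaged 157 ± 8.03 and 186 ± 26.2 CPM (0.25, SE 0.12). Genes known as PPAR targets had 1 higher and 0 lower of 15 tested at an unadjusted p under 0.05 (6.67%, median 0.08). Ucp2, a carrier of the inner mitochondrial membrane, averaged 897 ± 44.0 and 1078 ± 131 CPM (log2 fold change 0.27, SE 0.11; edgeR adjusted p = 0.469). Fabp1, the liver fatty acid binding protein, was highest in metformin 3, at 49.2 CPM, and at 8.54 to 23.4 CPM elsewhere. Cyp4a14, a hepatic hydroxylase, was also highest in metformin 3, at 3.59 CPM, against 0.287 to 1.40 CPM, and metformin 3 had the highest hepatocyte marker sum.

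The direction of 26 members held in every other setting that gave a value (15, or 14 for Acacb and Fads2), and that of 11 turned in at least 1. The 11 were Acsl1, Acadvl, Acadl, Hadhb, Echs1, Etfa, Etfb, Acaa1a, Mlycd, Elovl1 and Elovl5, each with a log2 fold change between -0.08 and 0.13.

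**Figure D4:**
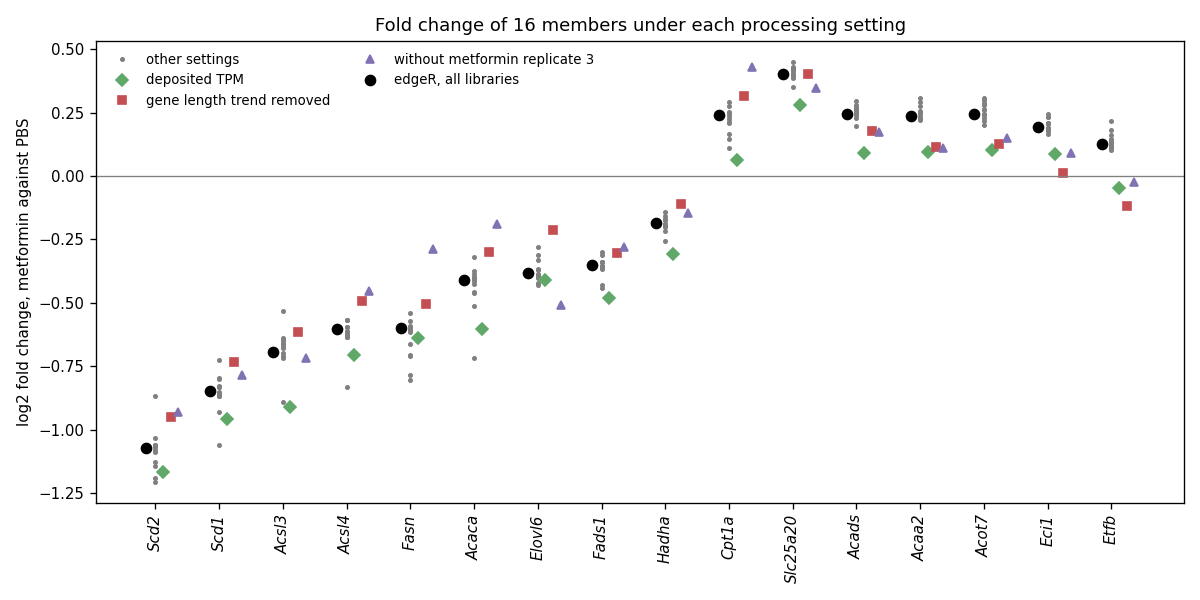
Log2 fold change (metformin against PBS) of 16 members under each processing setting: edgeR with all libraries (black), deposited TPM (green), gene length trend removed (red), without metformin 3 (violet) and all others (grey). Scd2, Scd1, Acsl3 and Acsl4 stay below -0.4 in every setting and Slc25a20 above 0.25, Fasn, Acaca and Cpt1a shift when metformin 3 is left out, and Etfb changes sign.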

How the data were processed

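Per the labels' protocols, total RNA of liver NK cells was extracted with a column kit and made into libraries with SMART-seq mRNA chemistry, in 3 PBS and 3 metformin samples. DRAGEN (no version) and 2 builds, mm10 and GRCm39, whose roles are not stated, are named in the submitters' processing notes. Counting options, strand and filters are not given in the sources used here, so reads of overlapping antisense genes cannot be told apart. The authors deposited an estimated count per gene and library, which need not be whole, and a TPM value per gene and library, which the authors scaled to a common total and which keeps no depth. Gene positions are printed as the table gives them: all 37 members are in GENCODE M21 (GRCm38), and 1 has the same start and end there.

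Counts were rounded and tested with edgeR 4.0.16 (glmQLFit, glmQLFTest, TMM, filterByExpr, no covariate) in R 4.3.3 over 15527 genes, with Benjamini-Hochberg adjustment and a threshold of 0.05 (common biological coefficient of variation 27.3%). Standard errors are the fold change over the root of the F statistic. Marker sums were tested by exact permutation, two-sided. Other settings were DESeq2 1.42.0, limma-voom (limma 3.58.1), other scalings and filters, a replicate block, limma on log2(TPM + 0.1), a lowess (span 0.3) on gene length removed as an offset, and each library left out. The tests were tried on simulated counts. The members, lists and settings were chosen with earlier results of these data known. Values by library are given for members with an unadjusted p under 0.05 or groups that did not overlap (mean of at least 1 CPM) and for Cpt1a, Acaca, Acacb, Mlycd, Fasn, Scd1 and Scd2. From each further list, up to 3 genes with the smallest p and a mean of at least 1 CPM are named; 2 such genes are not reported here. Molecular identifiers are not mentioned in the labels, so PCR copies may be counted as reads. The number of value columns that match no sample is 0. Libraries of the same group were farther apart than counting noise (14.8 to 63.9 chi-square units per degree of freedom).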

Additional observations from a re-analysis of the deposited data

How the results depend on the processing

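Over all genes edgeR called 0 at an adjusted p of 0.05, with 1610 whose unadjusted p was under 0.05, DESeq2 299 (147 higher, 152 lower), limma-voom 0, edgeR with no filter 1, with the gene length trend removed 1, and with 1 library left out 0 to 1 (1 without metformin 3). Members with an unadjusted p under 0.05 numbered 5 to 9 with 1 library left out, against 6.48% to 11.7% of all genes, and members whose groups did not overlap 15 to 20, against 26.5% to 32.3% of all genes. The replicate numbers shared by the groups were tried as a block: the replicate block gave 3 genes called, all higher and none a member, and 7 members at an unadjusted p under 0.05. Same-numbered libraries correlated in their deviations from the group means at 0.165, 0.0687 and 0.171, and differently numbered ones at -0.236 to 0.0744. PBS 2 alone correlated better with another number, at 0.0744 with metformin 1 against 0.0687 with metformin 2. The labels state no pairing and these values cannot settle it, so the main fit used no block.

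The median log2 fold change of the members was -0.02, against 0.03 (0.032) with upper quartile scaling, -0.16 on TPM, -0.06 (-0.062) with the length trend removed and -0.076 to -0.0024 with 1 library left out (-0.076 without metformin 3); the shifts of the median of all genes were 0.0473 with upper quartile scaling and -0.106 on TPM. The hepatocyte marker sum, metformin minus PBS, was 127 CPM, and -55.5 to 226 CPM with 1 library left out (-55.5 without metformin 3).

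The members that changed sign had small fold changes, and the cause was not tested. With upper quartile scaling Acadvl was at 0.037 and Echs1 at 0.032. Acadvl was at 0.0044 with library size only and 0.0042 with a filter of 5 CPM in 3 libraries. With no filter Acadl was at -1.6e-06 and Elovl1 at -0.0080. On TPM Acadl was at -0.092, Hadhb at -0.10, Etfb at -0.046, Acaa1a at -0.12, Mlycd at -0.039 and Elovl1 at -0.14. With the length trend removed Acadl was at -0.062, Echs1 at 0.073, Etfb at -0.12 and Elovl1 at -0.079. With 1 library left out the ranges were -0.10 to 0.15 for Acsl1, -0.059 to 0.020 for Acadvl, -0.027 to 0.052 for Acadl, -0.015 to 0.044 for Hadhb, -0.17 to 0.038 for Echs1, -0.21 to 0.012 for Etfa, -0.025 to 0.22 for Etfb, -0.0099 to 0.038 for Acaa1a, -0.031 to 0.022 for Elovl1 and -0.18 to 0.0015 for Elovl5. Depth limited Acacb, with at most 54 estimated reads in a library.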
